A study of Rattus norvegicus with 10 samples.

Results

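Umod, Slc12a1, Kcnj1, Slc12a3, Slc8a1 and Egf, 6 genes that mark the loop of Henle and the distal tubule, were followed in kidneys of rat fetuses whose mothers were normal or hyperinsulinemic. They were taken as every probe set that the platform annotation assigns to exactly 1 of these symbols, which gave 7 probe sets of the 15923 on the array. Slc8a1 had 2 and each of the others 1. The rule names the genes and uses no signal, but earlier results of these arrays were known when the genes were chosen. Total RNA of 10 kidney samples was hybridised to Affymetrix rat arrays, 1 per sample, on day 22 of gestation, close to birth. The 5 samples numbered 1 to 5 came from normal mothers on a regular diet. Those numbered 6 to 10 came from growth-restricted fetuses of Wistar rats, weighing 200 to 280 g, that had received a 2 mm sustained-release insulin implant under the skin before mating and again afterwards. These mothers ate a normal diet too. The labels name the strain for the implanted mothers only, and no litter, mother, fetal sex or batch for any sample, so each p-value rests on the scatter among these samples alone, and that scatter may be technical.

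The thick ascending limb of the loop of Henle takes up salt without water and so dilutes the tubular fluid and builds the gradient on which urine concentration depends. Slc12a1 encodes its apical Na-K-2Cl cotransporter NKCC2, the target of loop diuretics, and Kcnj1 the potassium channel ROMK, which returns potassium to the lumen for the next round of uptake. Umod encodes uromodulin, the abundant glycoprotein that these cells secrete into the urine. The distal convoluted tubule follows, with the thiazide-sensitive Na-Cl cotransporter NCC (Slc12a3) on its luminal side and, in the later distal segments, the Na/Ca exchanger NCX1 (Slc8a1) on the blood side, where it takes part in calcium reabsorption. Egf, the precursor of epidermal growth factor, is made in the same stretch of the nephron, and its renal expression is known to rise mostly after birth. A whole-kidney signal cannot tell fewer tubule cells from less RNA per cell.

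The arrays had been brought to a common scale, and their median signal lay between 130.0 and 136.9. Hyperinsulinemic replicate 6 stood apart, with a median correlation to the other arrays of 0.974 against 0.980 to 0.984. It also had the most Alb, the liver albumin gene, at 1742, followed by normal replicate 4 at 842. Of 7 tested liver genes 6 were higher in the hyperinsulinemic group, and the summed signal of 11 liver genes was 1319 to 2961 on normal and 1656 to 5876 on hyperinsulinemic arrays. Adrenal steroid genes stood out on normal replicate 1, with a summed signal of 924 against a range of 105 to 175 on the hyperinsulinemic arrays. Xist, the X-inactivation transcript, was 0.8 to 2 on normal and 42.4 to 70.5 on hyperinsulinemic arrays, so that every comparison here also sets samples with low Xist against samples with high Xist, and the 2 cannot be told apart.

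No member passed the test between the groups. Of the 5 member probe sets bright enough to be tested, 0 passed in limma at an adjusted p under 0.05, 0 had an unadjusted p under 0.05, and none of the 7 on the array had groups of arrays that did not overlap. Over all 9601 probe sets tested, 0.0104% passed, 5.36% had an unadjusted p under 0.05 and the groups did not overlap for 1.04%. Among the tested members 3 were lower and 2 higher in the hyperinsulinemic group, with a median log2 difference of -0.13, against 0.00200 over all tested probe sets, of which 49.1% were lower. Differences are hyperinsulinemic minus normal on the log2(signal + 16) scale, and ± gives the SD of a mean signal but the standard error of a difference.

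**Figure D1:**
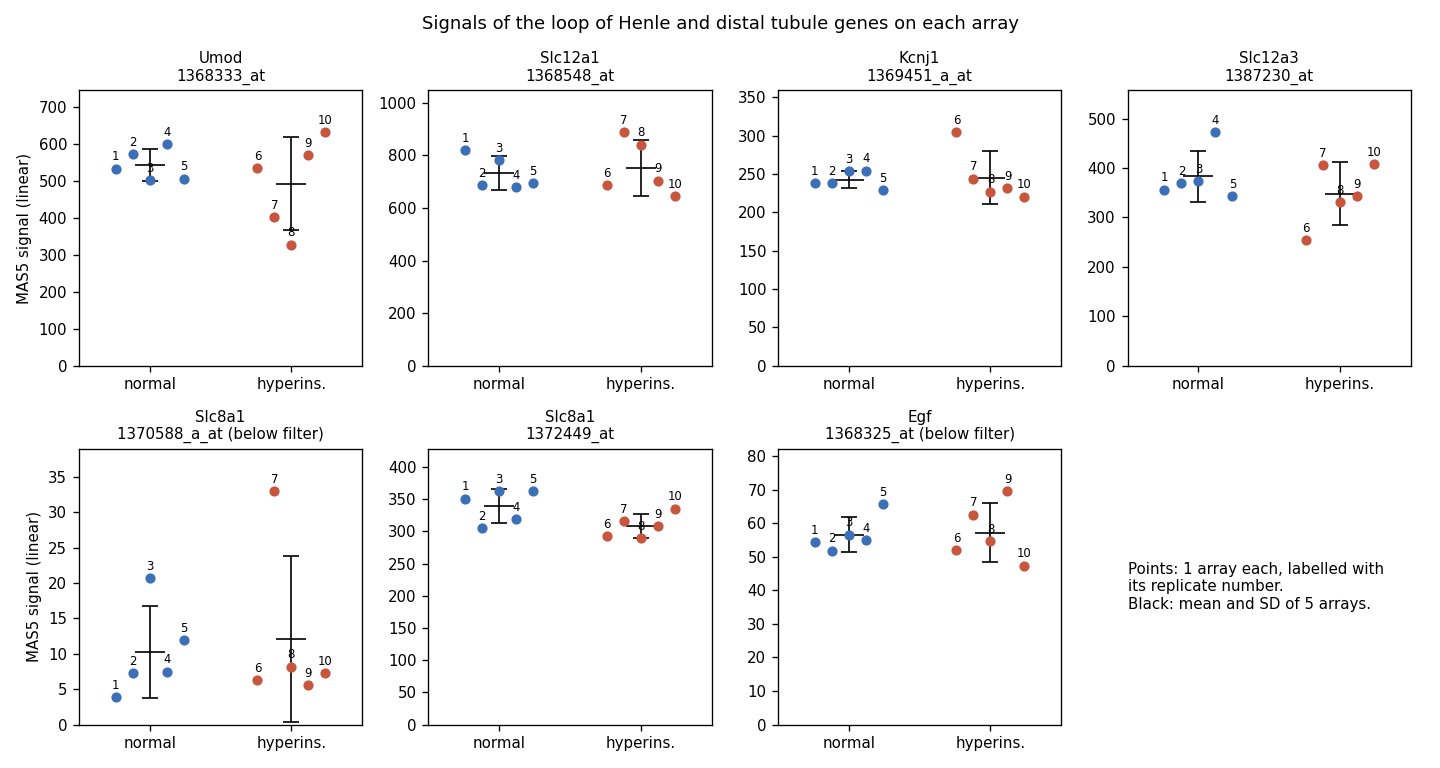
Each panel plots the linear MAS5 signal of 1 probe set (vertical axis, from 0) on the 5 normal and the 5 hyperinsulinemic arrays; points are arrays with their replicate numbers, and the black bars give the mean and SD of each group. The groups overlap in all 7 panels, and the spread of Umod is wider in the hyperinsulinemic group (327.8 to 632.1) than in the normal group (503.4 to 600.1).

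In the thick ascending limb, Umod had the widest scatter of the tested members. Its signal on normal replicates 1 to 5 was 533.8, 573.6, 503.4, 600.1 and 507.1. On hyperinsulinemic replicates 6 to 10 it was 534.8, 402.7, 327.8, 569.7 and 632.1. Replicates 7 and 8 thus lay below every normal array, replicate 10 lay above every normal array, and the other 2 fell inside the normal range. The means were 543.6 ± 42.2 and 493.4 ± 125 (SD, n = 5 each), which is a coefficient of variation of 7.77% in the normal and 25.3% in the hyperinsulinemic group. The log2 difference was -0.17 ± 0.14, with a 95% interval of -0.47 to 0.13 (limma, adjusted p = 0.973). That interval spans folds from 0.723 to 1.09, so a decrease to 0.723 of the normal level and a small rise both lie within the error. The residual scatter of Umod within groups was larger than that of 95.8% of the tested probe sets. The difference was -0.04 without replicate 8 and -0.27 without replicate 10.

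Slc12a1, the cotransporter gene of the same cells, showed no loss of signal. Its values on the normal arrays were 819.2, 688, 782, 680.7 and 694.7. On the hyperinsulinemic arrays they were 686.3, 887.9, 841.7, 704.4 and 645.3. Replicates 7 and 8, which were lowest for Umod, were the highest of all 10 arrays for Slc12a1, and replicate 10, highest for Umod, was the lowest. The means were 732.9 ± 63.4 and 753.1 ± 105 (SD, n = 5 each), the log2 difference was 0.03 ± 0.09, and the 95% interval ran from -0.16 to 0.22, or folds of 0.897 to 1.17 (limma, adjusted p = 0.987). The sign of this small difference turned when replicate 7 (-0.03) or 8 (-0.01) was left out.

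Kcnj1, the channel gene that works with the cotransporter, was nearly level on 9 of the 10 arrays. The normal arrays gave 238.4, 237.9, 253.4, 254.3 and 228.7. The hyperinsulinemic arrays gave 304.2, 243.7, 226.8, 231.5 and 220.2, so that replicate 6 alone lay above the normal range and replicates 8 and 10 lay just below it. The means were 242.5 ± 11.0 and 245.3 ± 34.0 (SD, n = 5 each) and the log2 difference was 0.01 ± 0.08, with a 95% interval of -0.17 to 0.18 (limma, adjusted p = 0.998). Without replicate 6, the array that stood apart, the difference was -0.07, and after the liver score had been added to the model it was -0.12. Neither passed (limma, adjusted p = 0.927 and 0.978). Within groups Kcnj1 followed the liver score with r = 0.778 (exact permutation p = 0.0360, adjusted p = 0.324 over 18 relations) and rho = 0.418 (exact permutation p = 0.304, adjusted p = 0.838). Without normal replicate 4 and hyperinsulinemic replicate 6, r was 0.0542, so this relation rests on those arrays.

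**Figure D2:**
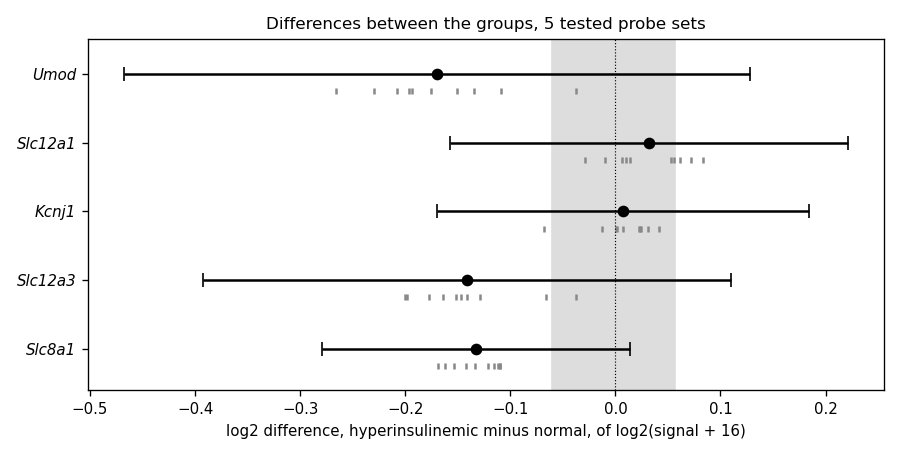
The horizontal axis gives the log2 difference between the groups (hyperinsulinemic minus normal) of the 5 tested member probe sets; black points and bars are the limma estimate and its 95% interval with all 10 arrays, grey ticks are the estimates with each array left out in turn, and the grey band holds the middle 50% of all tested probe sets (-0.06 to 0.06). Every interval includes 0, and the estimates for Umod range from -0.27 to -0.04 as single arrays are left out.

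Across arrays, Umod and Slc12a1 ran in opposite directions. After the group means had been removed, Pearson's r between their log2 signals was -0.820 over the 10 arrays (exact permutation within groups, p = 0.0196) and Spearman's rho was -0.879 (exact permutation p = 0.0121). Both genes belong to the same cells, and r was negative among normal (-0.536) and among hyperinsulinemic arrays (-0.907). This was the 1 pair of 15 among the members with an unadjusted p of r under 0.05, and it did not survive adjustment over the 15 pairs (Benjamini-Hochberg adjusted p = 0.294 for r and 0.181 for rho, from the exact permutation test). Without replicates 7 and 8, the arrays farthest from the median of Umod, r was -0.564. Umod and Kcnj1, by contrast, gave r = 0.124 (exact permutation p = 0.886, adjusted p = 0.946), with rho = -0.02 (exact permutation p = 0.980, adjusted p = 1), and r = -0.408 without the same 2 arrays. A quality measure ran opposite to Slc12a1, in a relation that did not pass adjustment either. For the ratio of 3' to 5' signal at Gapdh, a measure of RNA integrity, r was -0.736 (exact permutation p = 0.0356, adjusted p = 0.324 over 18 relations). Its rho was -0.648 (exact permutation p = 0.0952, adjusted p = 0.571), and r was -0.635 without normal replicate 5 and hyperinsulinemic replicate 10. The ratio was close to 1 on every array, from 1.019 to 1.179. Umod had r = 0.412 with it (exact permutation p = 0.342, adjusted p = 0.878 over 18 relations) and rho = 0.297 (exact permutation p = 0.474, adjusted p = 0.838). With that ratio as a covariate the group difference was 0.06 for Slc12a1 and -0.20 for Umod. The part of RNA integrity in the opposed pattern was not tested.

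The promoters of these 2 genes are shown because their whole-kidney signals ran in opposite directions across arrays, a relation that did not pass adjustment. The arrays read neither promoter directly. They are the 300 bases from 250 before to 50 after the annotated start, 5′ to 3′ on the gene's strand, from RefSeq on the GRCr8 build. Umod lies at chr1:183260967-183261266 on the minus strand and Slc12a1 at chr3:132859409-132859708 on the plus strand. Capitals mark matches, on either strand, to 5 short motifs: TATAAA, the AP-2 element GCCNNNGGC, the HNF1 letters GTTAAT and, containing them, GTTAATNAT, and the oestrogen-related receptor element TCAAGGTCA.
Umod: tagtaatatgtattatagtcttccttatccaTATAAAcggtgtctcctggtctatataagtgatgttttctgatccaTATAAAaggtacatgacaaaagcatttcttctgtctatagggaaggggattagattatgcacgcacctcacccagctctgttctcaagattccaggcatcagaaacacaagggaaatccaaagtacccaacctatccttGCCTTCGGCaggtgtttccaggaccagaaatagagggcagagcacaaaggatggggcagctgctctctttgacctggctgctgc
Slc12a1: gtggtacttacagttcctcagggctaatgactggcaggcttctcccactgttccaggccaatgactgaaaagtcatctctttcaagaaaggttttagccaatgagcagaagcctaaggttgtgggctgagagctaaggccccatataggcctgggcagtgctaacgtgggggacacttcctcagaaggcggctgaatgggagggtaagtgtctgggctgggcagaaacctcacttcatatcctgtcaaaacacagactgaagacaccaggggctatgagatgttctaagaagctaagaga
In Umod, TATAAA began 219 and 173 bases before the start and the AP-2 element 34 bases before it, while the Slc12a1 window held no match to any of the 5. Another listed start of Slc12a1, a short way upstream, had a window with no match either. Of 27457 promoters counted in the same table, 14.3% held TATAAA, 15.7% the AP-2 element, 7.37% GTTAAT, 0.750% GTTAATNAT and 0.412% TCAAGGTCA, so these matches are common letters, and a window without one says nothing about the factor.

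**Figure D3:**
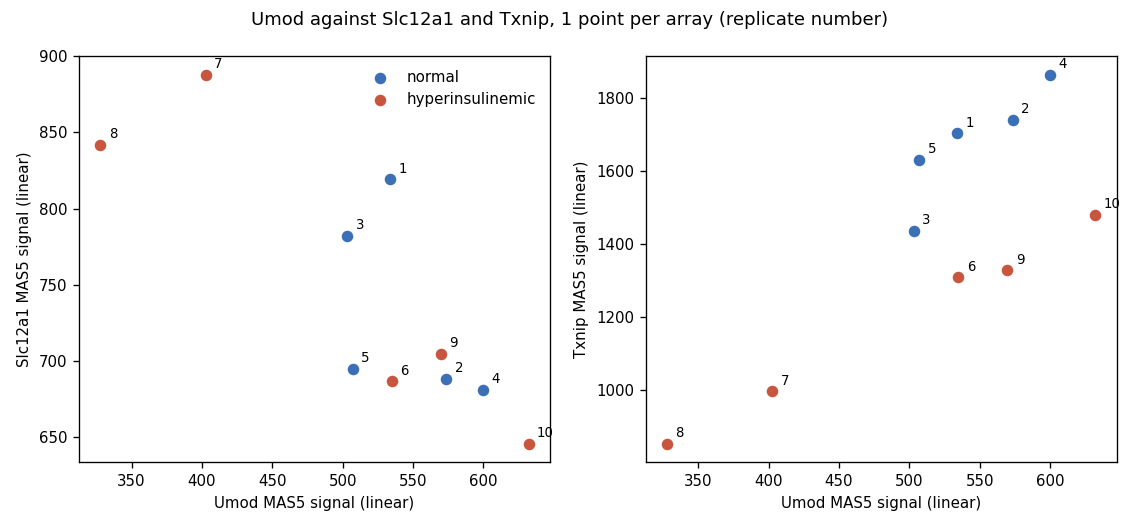
Each point is 1 array, labelled with its replicate number and coloured by group; the horizontal axes give the linear MAS5 signal of Umod, and the vertical axes that of Slc12a1 (left) and Txnip (right), with axes that do not start at 0. Replicates 7 and 8 combine the lowest Umod with the highest Slc12a1 signals (887.9 and 841.7) and the lowest Txnip signals (997.2 and 853.4).

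Of the distal convoluted tubule, Slc12a3 was lower on average, with wide overlap. Its normal signals were 355.9, 369.6, 373.9, 472 and 342.6. Its hyperinsulinemic signals were 253.8, 405.4, 331.2, 343 and 407.1. The highest value came from normal replicate 4 and the lowest from hyperinsulinemic replicate 6, the arrays with the second most and the most Alb, and 3 of 5 hyperinsulinemic arrays lay inside the normal range. The means were 382.8 ± 51.4 and 348.1 ± 63.2 (SD, n = 5 each), and the log2 difference was -0.14 ± 0.12 with a 95% interval of -0.39 to 0.11 (limma, adjusted p = 0.973). It was -0.07 without normal replicate 4, -0.04 without hyperinsulinemic replicate 6, 0.04 without both of these arrays, and -0.05 with the liver score in the model. Over 5 arrays each, r between Slc12a3 and the liver score was 0.956 on the normal and -0.974 on the hyperinsulinemic arrays. Neither was tested by itself. Normal replicate 4 had a liver score of 8.17, against 6.789 to 6.913 on the other normal arrays, so the normal r rests on that array. Over both groups r was -0.338 (exact permutation p = 0.395, adjusted p = 0.890 over 18 relations), and -0.837 without normal replicate 4 and hyperinsulinemic replicate 6. The model holds 1 slope for both groups and cannot describe slopes that differ, so the part of the liver score was not tested.

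Slc8a1, the exchanger gene, had the smallest standard error and the smallest p of the tested members. Its brighter probe set gave 350.6, 305.1, 362, 318.9 and 362.4 on the normal arrays. On the hyperinsulinemic arrays it gave 292.3, 315.9, 289.3, 308 and 335.4, of which replicates 6 and 8 lay below every normal array and the other 3 inside the normal range. The means were 339.8 ± 26.3 and 308.2 ± 18.8 (SD, n = 5 each), a log2 difference of -0.13 ± 0.07 with a 95% interval of -0.28 to 0.01, or folds of 0.824 to 1.01. The unadjusted p was 0.0719 and the adjusted p 0.939 in limma, which placed it 735th of 9601 by p, and the exact permutation p was 0.0635. The estimate stayed between -0.17 and -0.11 as each array was left out. Within groups Slc8a1 ran opposite to the liver score, in a relation that did not pass adjustment. Its rho with that score was -0.794 (exact permutation p = 0.00722, adjusted p = 0.130 over 18 relations) and r was -0.625 (exact permutation p = 0.0603, adjusted p = 0.362). Without the 2 arrays with the most Alb, r was -0.677. The group difference of Slc8a1 was -0.06 with the liver score in the model, but -0.14 without those 2 arrays. The part of the liver score in it was not tested. The second Slc8a1 probe set was near the bottom of the array and was not tested. It gave 3.9, 7.3, 20.7, 7.5 and 11.9 in the normal and 6.3, 33.0, 8.2, 5.6 and 7.3 in the hyperinsulinemic group (exact permutation p = 0.833), and the mean of both Slc8a1 probe sets was a log2 difference of -0.04.

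Egf was at the low end in every kidney. It gave 54.3, 51.9, 56.6, 54.9 and 65.7 on the normal and 52.1, 62.6, 54.7, 69.6 and 47.4 on the hyperinsulinemic arrays, all under the 40th percentile of their array, so it did not enter the test. The means were 56.7 ± 5.32 and 57.3 ± 8.82 (SD, n = 5 each), the log2 difference was 0.01 and the exact permutation p was 0.929. Of the receptors and sister ligands of EGF, 8 genes were on the array and 2 were bright enough to be tested. The receptor genes Erbb2 (152.6 ± 16.5 and 166.8 ± 14.8) and Erbb3 (94.4 ± 10.7 and 98.0 ± 12.8) differed by 0.12 ± 0.09 and 0.04 ± 0.10 (limma, adjusted p = 0.973 and 0.983).

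Other genes linked to the loop and distal tubule by role, not all of them confined to these segments, were taken from 7 lists. Of 69 listed genes 50 had a probe set of their own and 32 of these were tested. Of the 32, 0 passed in limma, 19 were lower and 13 higher, and the median difference was -0.03. At an unadjusted p under 0.05 in limma stood 3, Cldn10, Kl and Slc8b1, all lower, which is 9.38% of the tested genes. Over all tested probe sets the share was 5.36% in either direction and 2.93% lower. Lower genes at that p were also found in other cell types, with 4 of 19 tested proximal tubule genes (21.1%) and 4 of 8 tested stroma genes (50%). Without hyperinsulinemic replicate 6 the 7 lists held 5 such genes, and without both arrays with the most Alb 1. The matching share of all tested probe sets was not counted in these settings, so these counts have no background. These lists were put together with earlier results of the same arrays known, which had already named Cldn10, Ptger3, Umod and Slc8a1.

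Among partners in the thick ascending limb, 6 of 8 tested genes were lower and 2 higher. Cldn10, a tight junction protein that makes the paracellular route of this segment permeable to sodium, was the 1 gene of the 32 (3.12%) whose groups did not overlap, against 1.04% of all tested probe sets. Earlier results of these same arrays had already named Cldn10, so this share is a description and no evidence about the lists. The signals of Cldn10 were 572.3, 558.7, 639.3, 635.8 and 601 on the normal and 417.2, 466.8, 552.4, 485.7 and 538.7 on the hyperinsulinemic arrays. The log2 difference was -0.29 ± 0.08 and did not pass (limma, unadjusted p = 0.00201, adjusted p = 0.628). Ptger3, a prostaglandin E2 receptor gene of this segment, had 2 tested probe sets that differed by -0.39 ± 0.19 and -0.30 ± 0.14 (limma, adjusted p = 0.932 and 0.931). Other genes of the list, chosen for their role after their values were seen, lay closer to 0. Cldn16 and Cldn19, the claudins of magnesium and calcium reabsorption, differed by -0.14 ± 0.13 and -0.07 ± 0.11, and the potassium channel gene Kcnj16 by -0.06 ± 0.07. Hpn, the protease that releases uromodulin from the cell surface, differed by 0.02 ± 0.06. None of these passed.

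In the list for the distal tubule and its calcium and magnesium transport, all 6 tested genes were lower, with a median of -0.11. Several lay within their error. Atp2b1, Trpv5, Pth1r and Fxyd2, named after their values were seen, differed by -0.15 ± 0.13, -0.07 ± 0.12, -0.05 ± 0.06 and -0.05 ± 0.09. Among the genes too dim to be tested, Trpv6 (0.19) and Vdr (0.02) were higher, and Pvalb, S100g, Atp2b4 and Kcnj10 were lower. Kl, the co-receptor for FGF23, stood at 102.1 ± 10.4 and 82.0 ± 12.2, a log2 difference of -0.27 ± 0.10 (limma, unadjusted p = 0.0191, adjusted p = 0.907). The calcium-binding protein gene Calb1 gave 541.8, 696.8, 650.9, 948.6 and 590.5 in the normal and 786.9, 327.4, 419.6, 549.4 and 722 in the hyperinsulinemic group. Its lowest arrays were replicates 7 and 8, as for Umod, and the difference was -0.33 ± 0.20 (limma, adjusted p = 0.958). Slc8b1, a Na/Ca exchanger gene of mitochondria, stood at 233.5 ± 17.4 and 194.6 ± 23.6, with a difference of -0.25 ± 0.09 (limma, unadjusted p = 0.0111, adjusted p = 0.870), and its relatives Slc8a2 and Slc8a3 were too dim to be tested.

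The list for the kinase pathway that switches both cotransporters on, and for the sodium pump that drives them, also held Hsd11b2, Nr3c2, Sgk1 and Nedd4l. Its genes went in both directions, with 5 tested genes lower and 4 higher, a range of -0.15 to 0.09 and a median of -0.01. The low end of that range was Hsd11b2, which is not a kinase gene. The pump subunit gene Atp1b1 differed by 0.09 ± 0.05 and the glucocorticoid-inactivating enzyme gene Hsd11b2 by -0.15 ± 0.09 (limma, adjusted p = 0.953 for each). The kinase genes Wnk1, Stk39 and Oxsr1, also chosen after their values were seen, differed by -0.01 ± 0.07, 0.01 ± 0.06 and 0.09 ± 0.08. Among relatives of the cotransporters, Slc12a4 and Slc12a5 differed by 0.16 ± 0.12 and -0.10 ± 0.08. The transcription factor genes Pou3f3, needed for loop formation, and Esrrb differed by 0.17 ± 0.09 and 0.14 ± 0.12 (limma, adjusted p = 0.934 and 0.973). 

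**Figure D4:**
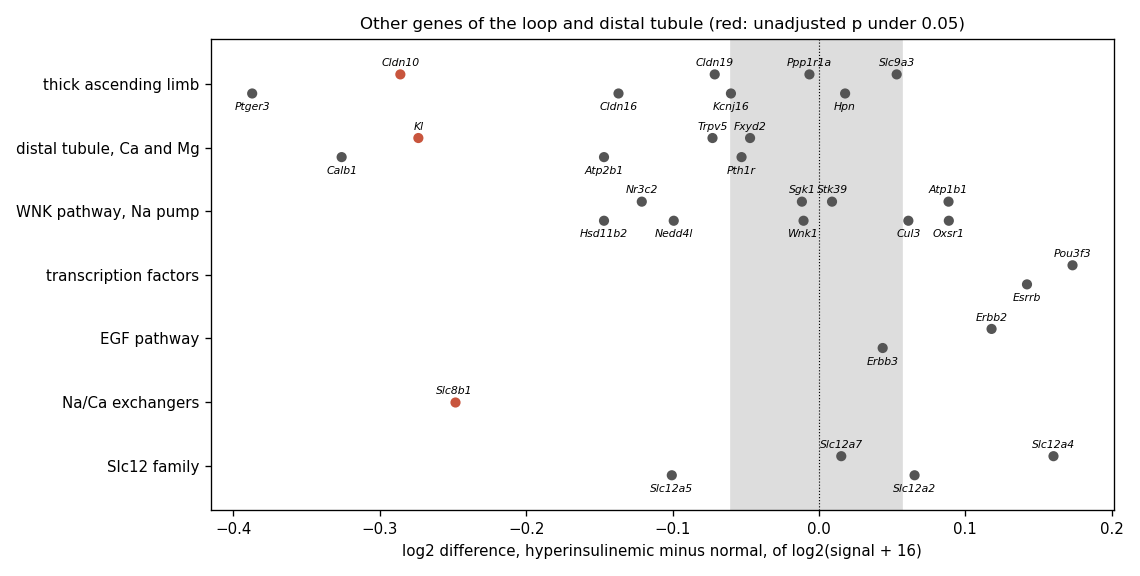
The horizontal axis gives the log2 difference (hyperinsulinemic minus normal) of each tested gene of the 7 lists, 1 point per gene and 1 row per list; red points had an unadjusted p under 0.05 and the grey band holds the middle 50% of all tested probe sets (-0.06 to 0.06). The 3 red points (Cldn10, Kl and Slc8b1) lie on the lower side. The genes in the row of the WNK pathway and sodium pump lie between -0.15 (Hsd11b2, not a kinase gene) and 0.09.

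The genes most like each member were those with the highest Pearson r of group-centred log2 signals over the 10 arrays, out of 7266 genes; as the largest of so many values over so few arrays they are a description and carry no p. For Umod they were Txnip (r = 0.977), Gstm5 (0.947) and Slc35b1 (0.939). Txnip, whose product is induced by glucose and restrains its uptake, gave 1703.7, 1740.9, 1437.2, 1864.3 and 1631.1 on the normal and 1309.6, 997.2, 853.4, 1328.9 and 1480.4 on the hyperinsulinemic arrays. Within each group the 5 arrays stood in the same order for Txnip as for Umod. Its groups overlapped, and its group difference was -0.51 ± 0.13 (limma, unadjusted p = 0.00115, adjusted p = 0.540). For Slc12a1 they were Dbt (0.978), Lrrc58 (0.969) and Appl1 (0.961). Each gene stands by its probe set with the highest r. For Appl1 this was the dimmest of 3, with a group difference of 0.04, while the brighter 2 differed by -0.16 and -0.11. Slc35b1 had a second, dimmer tested probe set, lowest in the hyperinsulinemic group on replicate 10 (141.3), where Umod was highest. For Kcnj1 they were Apoe (0.981), Tars2 (0.955) and Dut (0.934). Apoe, a lipoprotein gene of the liver and other tissues, was highest on replicate 6, at 376.5, as Kcnj1 was. Tars2 stands by its dimmer tested probe set. The brighter was lowest of the normal arrays on replicate 4 (114.3), where Kcnj1 was highest of that group. For Slc12a3 they were Fads2 (0.964), Glis2 (0.931) and Hpn (0.928), and for Slc8a1 Pi4ka (0.950), Phf13 (0.891) and Tmem183a (0.889). No gene was named for more than 1 member.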

How the data were processed

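The deposited table holds a linear intensity for each probe set on each array, made with MAS5 per the submitters' processing notes. Its settings are not given in the sources used here. Every array had a mean of 250.0 once the top and bottom 2% were trimmed, so the values were not rescaled, and no detection calls were used. After 57 control probe sets had been left out, signals were taken as log2(signal + 16). A probe set was tested where it reached the 40th percentile of its array on at least 5 of 10 arrays. All 9601 such probe sets were fitted with limma 3.58.1 in R 4.3.3 (eBayes, variance trend on intensity). P-values were two-sided and adjusted by Benjamini-Hochberg over all of them, with a threshold of 0.05. Where a gene of a list had several probe sets, the brightest tested 1 was used; for the genes most like a member, the probe set with the highest r was used. Gene symbols came from the platform annotation, with 1 symbol for 12789 probe sets, several for 312 and none for 2822. For a single value an exact permutation test, two-sided, was used, whose smallest possible p with 5 arrays a group is 0.00794. Correlations used group-centred values and all 14400 rearrangements within groups. The number of arrays limits the precision.

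The members, lists and tests were chosen with earlier results of these data known. Named were all members, Cldn10, Ptger3, pathway genes with an unadjusted p under 0.05 or among the 2 smallest of their list, Alb, Xist and the 3 genes most like each member; others are marked as such. The liver score was the mean log2 signal of the 7 tested liver genes. The fit, the permutation test and the motif search were tested on simulated data. Alternatives changed the pseudocount, filter, normalization, variance model, covariates and arrays. Plots used matplotlib 3.10.9 under Python 3.11.15.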

Additional observations from a re-analysis of the deposited data

Results flagged for a closer look

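In 3 of 14 groups of 5 arrays (7 member probe sets in 2 groups), 1 array lay far from the others by Dixon's gap criterion, which chance meets in about 5% of groups. Kcnj1 was 304.2 on hyperinsulinemic replicate 6, against 220.2 to 243.7 on the other 4. Slc12a3 was 472.0 on normal replicate 4, against 342.6 to 373.9. The dim Slc8a1 probe set was 33.0 on hyperinsulinemic replicate 7, against 5.6 to 8.2. The first 2 of these arrays are also those with the most Alb in their group (1742 and 842).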

How the results depend on the processing

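Under all 21 alternatives the count of members that passed in limma was 0, as was that of other loop and distal genes. Umod and Slc8a1 were lower in every setting, between -0.27 and -0.04 for Umod and between -0.17 and -0.04 for Slc8a1. Kcnj1, Slc12a3, Slc12a1 and Egf turned sign in some settings. Kcnj1 was -0.0323 with array weights, -0.122 with the liver score in the model, -0.0520 without the 2 arrays with the most Alb, and -0.0683 to 0.0414 as each array was left out. Slc12a3 was 0.0371 without the 2 arrays with the most Alb. With each array left out, Slc12a1 ran from -0.0291 to 0.0836 and Egf from -0.0515 to 0.0568.

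The count of other genes lower at an unadjusted p under 0.05 was 1 with the stricter filter, which tests fewer genes, 5 with array weights, 1 without the 2 arrays with the most Alb and 2 to 5 as each array was left out. The matching share of all tested probe sets was not counted in these settings, so a shift of the whole array cannot be told from one of these genes. Over the whole array 1 probe set passed; 5 did without a filter, 2 after shifting arrays to a common median, 4 with array weights, 0 without the intensity trend, with the liver score or without the 2 arrays with the most Alb, and 0 to 4 as each array was left out. The exact rank-sum test passed 0, with 362 at an unadjusted p under 0.05. No p of that test can be under 0.00794, too large to pass over 9601 probe sets when 100 have groups that do not overlap, so this 0 says nothing about stability. Where not stated, the cause was not tested. No paired analysis was possible because the replicate numbers, 1 to 5 and 6 to 10, are not shared between groups. Signal limits Egf and the dim Slc8a1 probe set, which were not tested.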

Other observations

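Neighbouring segments of the nephron did not share 1 direction. Of 3 tested genes of the thin limb, 3 were lower, with a median of -0.04, and of 19 tested proximal tubule genes 15 were lower, with a median of -0.06. In the collecting duct, which follows the distal tubule, 6 of 9 tested genes were higher, with a median of 0.04. There the water channel genes Aqp2 and Aqp3, named after their values were seen, differed by 0.45 ± 0.11 and 0.18 ± 0.06 and did not pass (limma, adjusted p = 0.540 and 0.865). The 3 lower genes of that list were Scnn1b (-0.14 ± 0.07, limma, adjusted p = 0.932), a subunit of the epithelial sodium channel, Fxyd4 (-0.00775 ± 0.13) and Avpr2 (-0.00419 ± 0.14). Aqp2 was 1299 ± 243 on the normal and 1756 on average on the hyperinsulinemic arrays, and its groups did not overlap, as for 1.04% of all tested probe sets. Of 8 tested stroma genes 7 were lower, with a median of -0.14; Lum and Postn, matrix protein genes named after their values were seen, differed by -0.63 ± 0.11 and -0.43 ± 0.09 (limma, adjusted p = 0.132 and 0.264). The 5 tested genes of the general epithelial list (Epcam, Cdh1, Cdh16, Krt8 and Krt18) had a median of -0.03, with 4 lower. The differences between these lists were not tested.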
